A study of Mus musculus with 288 samples.

Results

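Tubulins are the building blocks of microtubules, the hollow fibres that position organelles, carry vesicles and, in hepatocytes, serve the secretion of plasma proteins and lipoproteins. Each unit is a pair of an alpha and a beta tubulin, folded with the help of the chaperonin TRiC and a set of cofactors, and mammals encode several isotypes of each. Cells also sense their pool of free tubulin: when it is high, TTC5 binds the first residues of nascent tubulin at the ribosome and the tubulin mRNA is degraded. The 9 genes described here are the alpha isotypes Tuba1a, Tuba1b, Tuba1c and Tuba4a and the beta isotypes Tubb2a, Tubb2b, Tubb4b, Tubb5 and Tubb6, of 15176 genes listed in both tables of at least 1 tissue. They were chosen by name as a family and by measured values: Tuba1c was singled out because it followed the time of feeding in BLKO liver. Values from BLKO liver, and the liver differences between genotypes, are therefore given as a description, and calls printed for them are no evidence.

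Transcripts were measured by bulk RNA sequencing in 288 libraries from liver, white adipose tissue (white fat) and lung of C57BL/6 mice aged 3 months, kept in 12 h of light and 12 h of dark. Mice of both genotypes carried Alb-Cre, a Cre recombinase under the promoter of albumin, a gene of hepatocytes. Alb-Cre mice without floxed alleles were the controls, and BLKO mice carried Alb-Cre with Bmal fl/fl, floxed alleles of the core clock gene Bmal1 (symbol Arntl), so other liver cells, fat and lung are not targeted by the Cre. For 30 days food was given ad libitum or restricted to the light phase (daytime-fed). Every tissue thus had 4 groups of 24 libraries, with 2 libraries (A and B) per time, and 12 times spaced over the day up to 22 h. Where lights-on falls in these hours is not stated. Library titles also carry a number that is the same within each combination of genotype and feeding and differs between them. The titles do not explain it, and it cannot be told apart from feeding or genotype. Since no label names an animal, p-values measure how far libraries spread. The purpose, as the series title gives it, is how feeding time acts on clocks and rhythms of peripheral tissues through the liver clock.

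All levels are CPM, read counts per gene relative to the trimmed-mean scaled total of the library, and they are compared between groups of 1 gene, not between genes. A 24 h rhythm was tested by a cosine and sine of time with edgeR's quasi-likelihood F test, and adjusted p-values are Benjamini-Hochberg values over all genes tested in the tissue, with 0.05 as threshold. The fitted peak-to-trough difference is the distance from the lowest to the highest point of the cosine on the log2 CPM scale, given with its standard error (SE, 24 libraries per group). Total counts per library ran from 1214842 to 5462461 in liver, 1365001 to 5040306 in white fat and 923122 to 3973976 in lung. The defining markers of each tissue were present in every library: 6 of 6 hepatocyte markers were listed in liver, 6 of 6 adipocyte markers in white fat and 5 of 5 alveolar type 2 markers in lung. Arntl cycled by 4.12 ± 0.34 log2 units in Alb-Cre livers fed ad libitum and by 0.42 ± 0.34 in BLKO livers, with medians of 11.1 and 10.7 CPM. Its level checks neither the deletion nor the labels, since reads from the rest of the gene count towards it. By their correlation with their group, 2 liver libraries (BLKO, ad libitum, 0 h B and 4 h B) and 5 fat libraries stood apart. In lung, 27 of 96 libraries held over 1000 CPM of skeletal muscle or squamous epithelium genes. Where leaving these libraries out made or ended a call, or moved a called value by over 1.5 times, the value without them is given beside the result.

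The start of the coding sequence is the stretch that autoregulation reads, so the first 24 bases are shown for 8 of the genes, from the reference transcripts, with the first 4 codons in capitals. The 4 alpha isotypes share the residues that these codons encode, and so do the 4 beta isotypes, while the bases vary. The 24 bases of Tuba1b and Tuba1c are identical.
Tuba1a: ATGCGTGAGTGCatctccatccat
Tuba1b: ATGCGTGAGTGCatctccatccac
Tuba1c: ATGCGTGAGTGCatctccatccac
Tuba4a: ATGCGCGAGTGCatttcagtccat
Tubb2a: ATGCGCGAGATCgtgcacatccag
Tubb2b: ATGCGAGAGATCgtgcacattcag
Tubb4b: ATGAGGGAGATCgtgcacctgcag
Tubb5: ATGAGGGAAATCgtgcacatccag

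The proximal promoters of the 4 genes with the lowest adjusted p for a rhythm in daytime-fed Alb-Cre livers (Tubb2a, Tuba4a, Tubb4b and Tuba1c), and of Tubb5, are shown because the liver results turn on these genes. Each runs from 250 bases before to 50 bases after the transcription start in RefSeq (GRCm38.p6). Capitals mark the CCAAT box (CCAAT), the TATA box (TATAAA) and the E-box (CACGTG), the site that BMAL1 and CLOCK bind, read on either strand.
Tubb2a, chr13:34077959-34078258, minus strand: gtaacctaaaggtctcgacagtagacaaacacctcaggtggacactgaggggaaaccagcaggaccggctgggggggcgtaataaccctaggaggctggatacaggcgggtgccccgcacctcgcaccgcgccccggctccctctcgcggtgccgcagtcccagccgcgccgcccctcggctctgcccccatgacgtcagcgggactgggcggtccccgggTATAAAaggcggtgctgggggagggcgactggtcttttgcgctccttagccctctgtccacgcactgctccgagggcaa
Tuba4a, chr1:75219245-75219544, minus strand: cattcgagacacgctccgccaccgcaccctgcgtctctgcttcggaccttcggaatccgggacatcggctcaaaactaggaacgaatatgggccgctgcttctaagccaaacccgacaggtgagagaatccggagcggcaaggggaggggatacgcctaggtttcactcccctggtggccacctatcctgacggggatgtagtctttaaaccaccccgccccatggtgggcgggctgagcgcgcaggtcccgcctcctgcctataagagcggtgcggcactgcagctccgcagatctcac
Tubb4b, chr2:25224653-25224952, minus strand: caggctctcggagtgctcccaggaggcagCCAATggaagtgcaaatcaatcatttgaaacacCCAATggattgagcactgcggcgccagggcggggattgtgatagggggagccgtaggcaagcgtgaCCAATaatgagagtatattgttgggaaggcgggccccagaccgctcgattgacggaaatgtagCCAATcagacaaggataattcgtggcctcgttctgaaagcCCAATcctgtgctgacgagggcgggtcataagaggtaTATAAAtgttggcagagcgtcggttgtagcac
Tuba1c, chr15:99029641-99029940, plus strand: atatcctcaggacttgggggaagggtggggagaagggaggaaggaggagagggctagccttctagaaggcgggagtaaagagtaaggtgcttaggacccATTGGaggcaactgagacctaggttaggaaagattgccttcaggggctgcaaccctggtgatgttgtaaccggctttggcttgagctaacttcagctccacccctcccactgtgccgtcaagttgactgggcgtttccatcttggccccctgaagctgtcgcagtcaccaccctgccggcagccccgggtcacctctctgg
Tubb5, chr17:35838252-35838551, minus strand: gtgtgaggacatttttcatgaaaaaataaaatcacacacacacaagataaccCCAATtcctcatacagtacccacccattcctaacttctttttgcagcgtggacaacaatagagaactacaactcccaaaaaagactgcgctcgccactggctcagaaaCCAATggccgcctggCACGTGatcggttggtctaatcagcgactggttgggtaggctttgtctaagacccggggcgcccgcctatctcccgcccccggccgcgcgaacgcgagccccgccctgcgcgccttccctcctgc

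A promoter was at hand for 7 of the 9 genes. On both strands, the E-box CACGTG occurred in 1 of the 7 (Tubb5), against 7.15% of 32851 promoter windows of the same length. The CCAAT box occurred in 4 of the 7 against 37.4% of windows, with 5 copies in Tubb4b. The GC box GGGCGG occurred in 6 of the 7 against 35.7%, and TATAAA in Tubb2a and Tubb4b against 13.6%. Relative to the transcription start, TATAAA began at -29 in Tubb2a but at 18, after the start, in Tubb4b. The ROR element AGGTCA and the CArG box of serum response factor had no match in the 7 windows, against 16.3% and 1.63% of all windows. No matches of different motifs overlapped. These are matches of letters in a short window and say nothing about binding.

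Some of these genes share sequence, which bears on every value below. Of all stretches of 50 bases of the transcript, 72.9% in Tuba1a, 73.8% in Tuba1b and 61% in Tuba1c also occur in the transcripts of other genes, 52% of those of Tuba1c in Tuba1b. The share was 49.6% in Tubb2a, 39.3% in Tubb2b and 50.9% in Tubb4b (43.6% with the pseudogene Tubb4b-ps1), but 1.11% in Tuba4a, 0.115% in Tubb5 and 0% in Tubb6. How reads that match several genes were counted is not given in the sources used here, so the split between Tuba1a, Tuba1b and Tuba1c, and between Tubb2a and Tubb2b, is uncertain. The sum of Tuba1a, Tuba1b and Tuba1c is therefore given beside the main liver result. Tuba1c lies on chromosome 15 of mm10, from 99029891 to 99038110 on the plus strand, near Tuba1b (98931425 to 98934565, minus strand) and Tuba1a (98949837 to 98953703, minus strand). Tubb2a (34074274 to 34078007) and Tubb2b (34126748 to 34130466) lie side by side on the minus strand of chromosome 13. Tuba4a is at 75214228 to 75219865 on chromosome 1, Tubb4b at 25222160 to 25224702 on chromosome 2 and Tubb5 at 35833921 to 35838306 on chromosome 17, all on the minus strand.

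The isotypes were distributed over the tissues very unequally. Tuba1a, the isotype best known from developing neurons, had group medians of 6.08 to 8.38 CPM in liver, 611 to 811 CPM in lung and 753 to 1530 CPM in white fat. No liver library exceeded 14.1 CPM and no library of the other tissues fell below 93.1 CPM. Tuba1b, a widely expressed alpha isotype, had medians of 67.6 to 91.3 CPM in liver, 571 to 669 in lung and 782 to 1920 in white fat. Its liver libraries, at 44.4 to 159 CPM, lay below every lung library (370 to 897) and every fat library (182 to 2890). Tuba4a, abundant in platelets and muscle, ran the other way, with medians of 302 to 364 CPM in liver, 102 to 141 in lung and 29.8 to 45.3 in white fat. Its ranges over libraries, 143 to 663 in liver, 61.1 to 263 in lung and 19.7 to 120 in white fat, overlapped between neighbouring tissues. The scaling was done within each tissue, so these levels are set side by side with no test.

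Tuba1c had medians of 138 to 188 CPM in liver, 76.1 to 123 in lung and 41.7 to 49.7 in white fat, with overlapping libraries. Tubb2a, a major beta isotype of the brain that is also made in liver, had medians of 227 to 435 CPM in liver, 184 to 245 in lung and 125 to 160 in white fat, and its 96 liver libraries spanned 34.7 to 714 CPM. Tubb2b, whose human gene is linked to brain malformation, was not analysed in liver and was low elsewhere, with medians of 3.65 to 6.46 CPM in lung and 4.75 to 6.56 in white fat. Tubb4b, a widely expressed isotype also used in cilia, had medians of 515 to 612 CPM in lung, 293 to 442 in white fat and 178 to 206 in liver. Tubb5, the main beta isotype of many cell types, had medians of 221 to 462 CPM in lung, 192 to 323 in white fat and 62.4 to 93.1 in liver. Tubb6 had medians of 46.1 to 53.1 CPM in white fat, 25.2 to 28 in lung and 5.49 to 6.61 in liver. None of the listed genes was at 0 in any library.

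**Figure D1:**
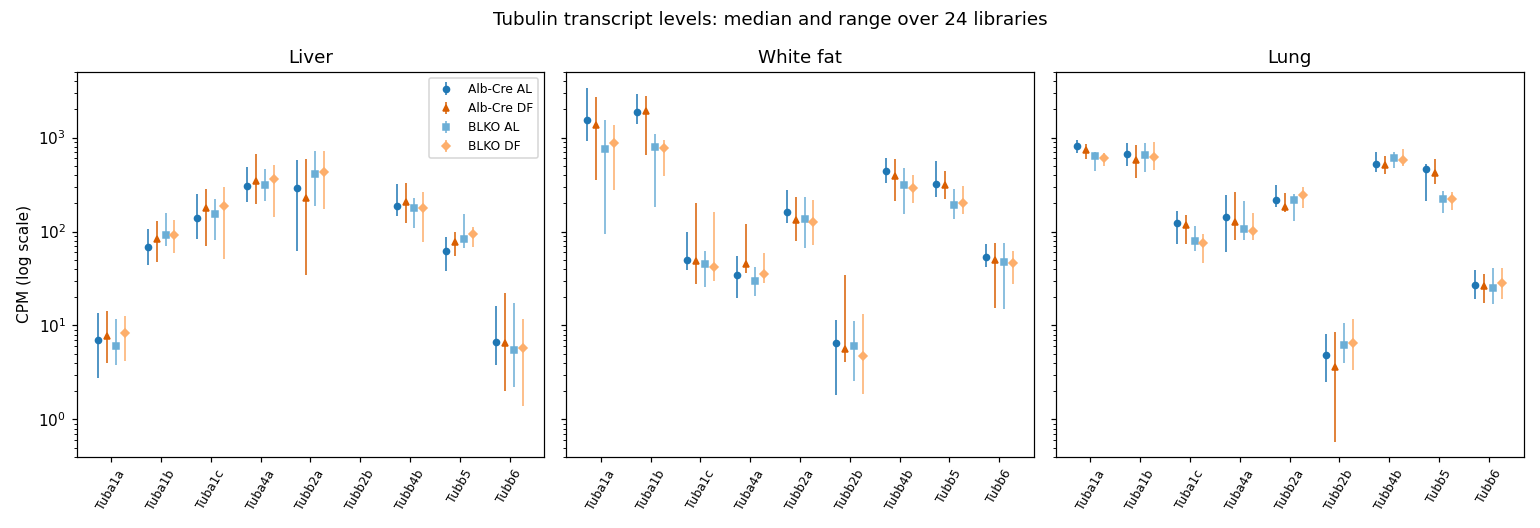
CPM (log axis) of the 9 tubulin genes in liver, white fat and lung; points are group medians and bars the range over the 24 libraries of each of the 4 combinations of genotype and feeding (AL, ad libitum; DF, daytime-fed). Tuba1a and Tuba1b lie far lower in liver than in white fat and lung, Tuba4a lies highest in liver, and Tubb2b has no liver value.

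In Alb-Cre livers, the rhythm of 6 of the 8 tubulin genes differed between the feeding regimens. Tubb2a swung most. Fed ad libitum, its lowest, median and highest libraries were 62.4, 292 and 570 CPM, with 511 and 544 CPM in the libraries of 2 h and 62.4 and 108 CPM at 12 h. Daytime-fed, they were 34.7, 227 and 596 CPM, with 579 and 596 CPM at 12 h and 34.7 and 45.5 CPM at 0 h. The hour that was lowest under one regimen was thus the highest under the other. The libraries of these hours, picked from the same values, did not overlap. The fitted peak-to-trough difference was 2.27 ± 0.27 log2 units (4.83-fold) ad libitum, peaking at 0.272 h, and 2.99 ± 0.27 (7.96-fold) when daytime-fed, peaking at 11.1 h. Both rhythms passed (adjusted p = 3.26e-08 and 2.01e-11), and so did the difference between them (adjusted p = 3.62e-16), with a shift of the peak by 10.8 ± 0.564 h.

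Tuba4a and Tubb4b moved like each other and less steeply. Tuba4a ran from 204 to 482 CPM ad libitum (median 302), with 373 and 482 CPM at 0 h and 204 and 222 at 12 h, and from 198 to 663 CPM daytime-fed (median 344), with 529 and 663 CPM at 12 h and 198 and 230 at 0 h. Its high and low hours, picked in the same way, again changed places between the regimens, without overlap of their libraries. The peak-to-trough difference was 0.79 ± 0.13 at 3.11 h ad libitum and 1.05 ± 0.13 at 11.1 h daytime-fed (adjusted p of the rhythms 1.46e-06 and 2.43e-10). The difference between the regimens had an adjusted p of 3.42e-12, and the peak moved by 7.99 ± 0.756 h. Tubb4b had 277 and 303 CPM at 2 h against 146 and 154 at 12 h ad libitum, and 314 and 329 at 12 h against 122 and 144 at 0 h when daytime-fed. Its range was 145 to 320 CPM (median 186) in the first group and 122 to 329 (median 206) in the second. The peak-to-trough difference was 0.88 ± 0.13 at 3.44 h and 0.83 ± 0.13 at 11.6 h, a shift of 8.16 ± 0.81 h (adjusted p 9e-08 and 1.37e-06 for the rhythms, 1.48e-10 for their difference).

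Tuba1c had a called rhythm when daytime-fed and not ad libitum. Fed ad libitum, its libraries ran from 82.6 to 249 CPM (median 138) and its peak-to-trough difference was 0.25 ± 0.21 (adjusted p = 0.567). Daytime-fed, they ran from 70 to 280 CPM (median 177), with 242 and 280 CPM at 4 h against 70 and 77.4 at 0 h. The peak-to-trough difference was then 1.09 ± 0.21, or 2.13-fold, at 9.02 h (adjusted p = 0.00031). The libraries of 8 h (146 and 142 CPM) lay below those of 4 h and those of 12 h (245 and 219 CPM). The fitted peak therefore does not mark the highest hour. The difference between the regimens passed too (adjusted p = 0.00387), and stayed under 0.05 in every alternative run, at 0.000162 to 0.031. With Tuba1a, Tuba1b and Tuba1c summed, the peak-to-trough difference was 0.30 ad libitum and 0.81 daytime-fed, with the peak at 9.92 h in the latter.

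Among the other members, Tubb5 had its called rhythm ad libitum and not when daytime-fed. Ad libitum it had 83.1 and 83.7 CPM at 8 h against 37.9 and 55.2 at 14 h, and a peak-to-trough difference of 0.71 ± 0.12 at 4.64 h (adjusted p = 2.41e-05). Daytime-fed it had 0.31 ± 0.12 (adjusted p = 0.179), and the difference between the regimens passed (adjusted p = 1.35e-05). Tuba1b was rhythmic when daytime-fed, with 100 and 121 CPM at 18 h against 47.4 and 64.1 at 2 h (0.69 ± 0.17 at 13.5 h, adjusted p = 0.00682), and differed between the regimens (adjusted p = 0.00259). With time as 12 separate levels in place of a cosine, these Tuba1b values became 0.081 and 0.12. Tuba1a, near 7 CPM throughout, passed when daytime-fed (0.72 ± 0.22 at 12 h, adjusted p = 0.0445) but not under 10 of the alternatives (0.06 to 0.308). Its difference between the regimens did not pass (adjusted p = 0.131). For Tubb6 the rhythms had adjusted p-values of 0.354 and 0.242 and the difference one of 0.127, at medians of 6.61 and 6.53 CPM.

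**Figure D2:**
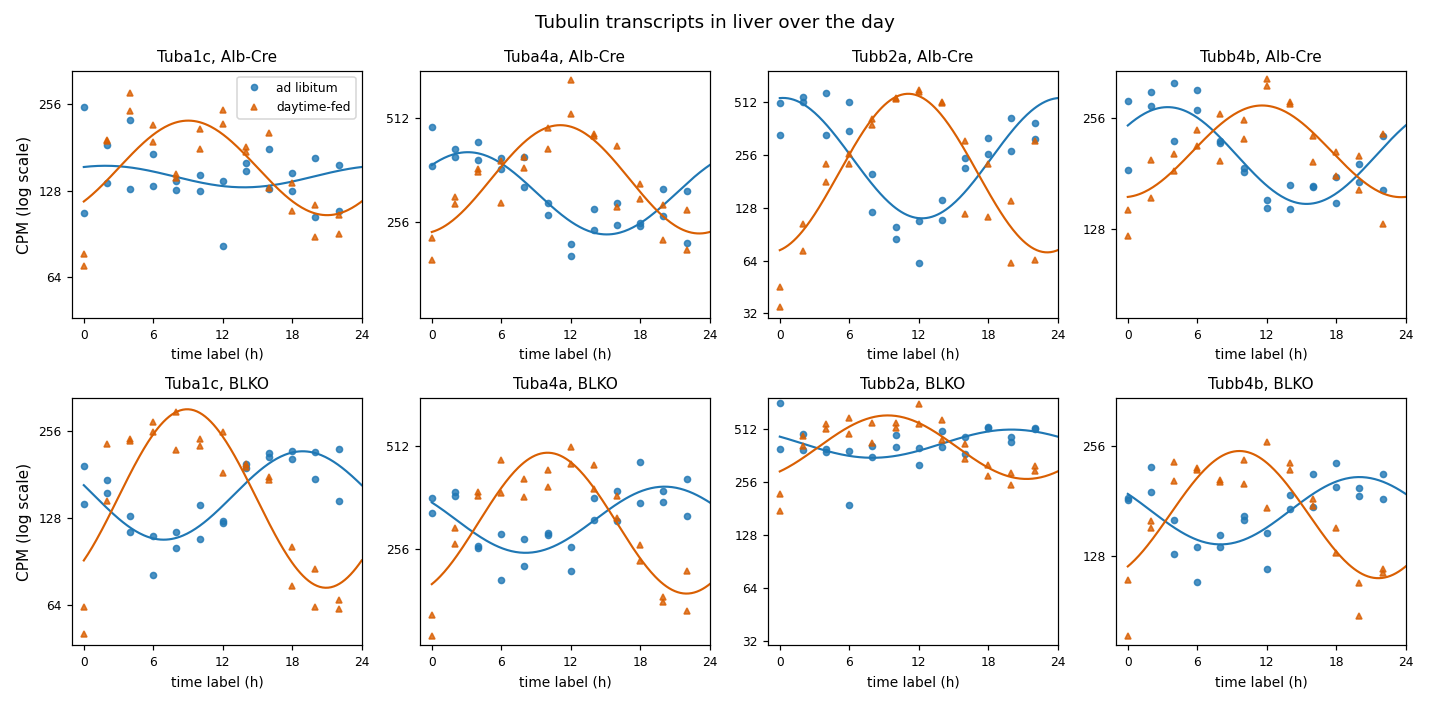
CPM (log axis) of Tuba1c, Tuba4a, Tubb2a and Tubb4b in liver against time in h, with Alb-Cre in the upper and BLKO in the lower row; points are single libraries, blue circles ad libitum and orange triangles daytime-fed, and lines the fitted 24 h cosines. In Alb-Cre livers Tubb2a has its lowest libraries at 12 h ad libitum (62.4 and 108 CPM) and its highest there when daytime-fed (579 and 596 CPM).

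In counts, 4 of the 8 members were rhythmic in Alb-Cre livers fed ad libitum, against 17.4% of the 9009 genes tested, and 6 of the 8 when daytime-fed, against 19.5%. The rhythm differed between the regimens for 6 of the 8, against 28.5% of all genes. DESeq2 called the same numbers, 4, 6 and 6. Mean levels over the day moved little. Only Tubb5 changed with daytime feeding, 1 of 8 against 7.74% of all genes: its mean rose by 0.33 log2 units (SE 0.06, adjusted p = 0.000102), with lowest, median and highest libraries of 37.9, 62.4 and 86.5 CPM ad libitum and 54.6, 77.1 and 98.3 CPM daytime-fed. The groups overlapped. The median log2 difference was 0.13 over the 8 members and -0.00 over all genes. Without the libraries of 22 h the mean of Tubb2a passed as well, at -0.43. In bulk tissue, fewer cells of a type and less RNA per cell cannot be told apart. The hepatocyte markers summed to medians of 86200 and 82400 CPM in these groups, and 0 of 6 changed in mean. Higher when daytime-fed were 1 of 5 measured endothelial, 1 of 6 macrophage and 1 of 2 measured adipocyte markers. Lower were 1 of 3 measured cholangiocyte and 1 of 6 stellate and fibroblast markers. Macrophage markers summed to medians of 194 and 266 CPM and endothelial markers to 75.9 and 89.1 CPM. The part of these cell types was not tested.

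In BLKO livers, whose values chose Tuba1c, the same genes followed feeding, from another phase. Tuba1c ran from 81.3 to 222 CPM (median 152) ad libitum, with 206 and 219 CPM at 18 h against 81.3 and 110 at 6 h. Daytime-fed it ran from 50.5 to 298 CPM (median 188), with 254 and 277 CPM at 6 h against 50.5 and 62.9 at 0 h. Its high and low hours, picked from these values, did not overlap in either group. The peak-to-trough difference was 1.02 ± 0.21 (2.03-fold) at 18.9 h ad libitum and 2.06 ± 0.21 (4.17-fold) at 8.93 h daytime-fed. That second value was larger than that of any other of the 8 genes in BLKO livers. Summed with Tuba1a and Tuba1b it was 0.61 at 19.1 h and 1.43 at 9.19 h.

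Tuba4a, Tubb4b and Tubb2a had fitted peaks near those of Tuba1c in BLKO livers, though that of Tubb2a was poorly placed ad libitum. Their fitted peaks lay at 20.1, 20 and 20 h ad libitum and at 10, 9.64 and 9.32 h daytime-fed. The ad libitum peak of Tubb2a had an SE of 1.92 h, and its highest libraries were those of 0 h (393 and 714 CPM). Tuba4a had 452 and 509 CPM at 12 h against 143 and 165 at 0 h when daytime-fed, a peak-to-trough difference of 1.36 ± 0.13, against 0.64 ± 0.13 ad libitum. Tubb4b had 220 and 229 CPM at 14 h against 77.7 and 110 at 0 h, with 1.15 ± 0.13 daytime-fed and 0.61 ± 0.13 ad libitum. Tubb2a had 542 and 712 CPM at 12 h against 175 and 217 at 0 h, with 1.20 ± 0.27 daytime-fed and 0.53 ± 0.27 ad libitum. For Tubb2a both fitted swings were below those of 2.99 and 2.27 in Alb-Cre livers, while for Tuba1c both were above. The peaks of the 4 genes lay 9.97 to 10.7 h apart between the regimens, with an SE of 2.1 h for Tubb2a.

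The remaining members had smaller fitted swings than these 4 genes in daytime-fed BLKO livers. Ad libitum this did not hold, since Tubb6 and Tuba1a had larger ones than Tuba4a, Tubb4b and Tubb2a. Tuba1b had 0.09 ± 0.17 ad libitum and 0.68 ± 0.17 at 11.3 h daytime-fed. Tubb5 had 0.28 ± 0.12 and 0.39 ± 0.12. Tuba1a had 0.67 ± 0.22 and 0.29 ± 0.22, and Tubb6 1.01 ± 0.32 at 21.3 h and 0.90 ± 0.32 at 7.99 h. The libraries of 0 h B and 4 h B stood apart in the ad libitum group, with 4010 and 3450 CPM of the genes Cyp4a14, Fgf21, Trib3, Igfbp1 and Cyp4a10, which rise in the fasted liver. Tubb2a was at 714 CPM and Tubb5 at 153 CPM in the first of them, the highest values of both genes in liver. Without these 2 libraries the ad libitum peak-to-trough difference was 1.03 for Tuba1c, 0.65 for Tuba4a, 0.60 for Tubb4b, 0.50 for Tubb2a and 0.145 for Tubb5. Their part in the result was not tested.

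**Figure D3:**
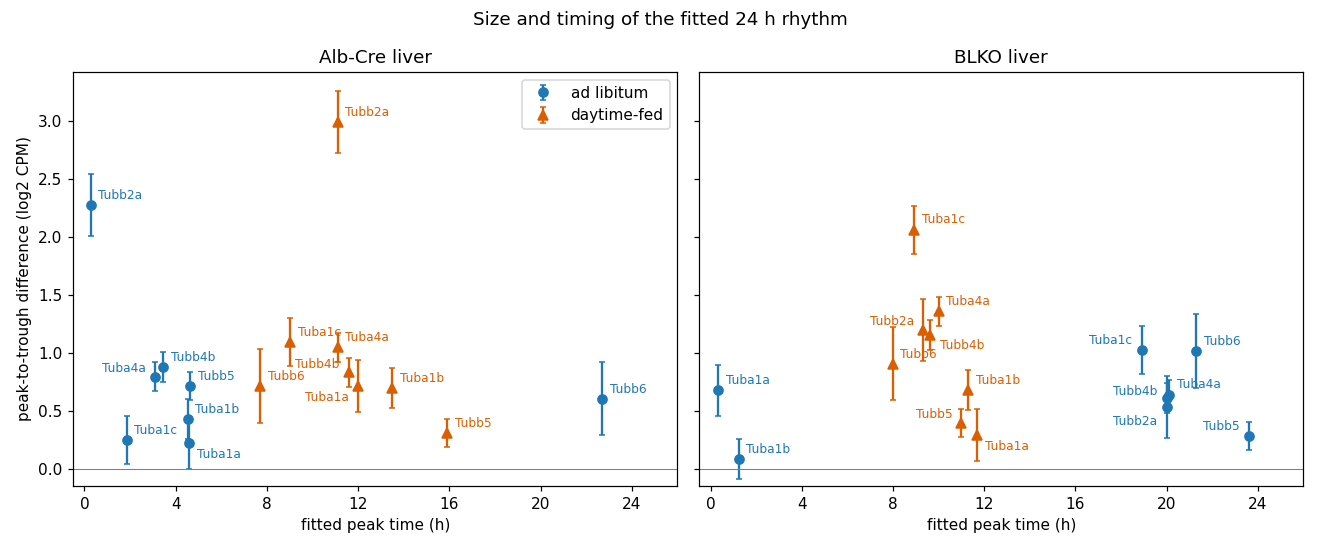
Fitted peak-to-trough difference (log2 CPM) against fitted peak time (h) for the 8 tubulin genes in Alb-Cre and BLKO livers; bars are 1 SE, blue circles ad libitum and orange triangles daytime-fed. The daytime-fed peaks lie between 7.71 and 15.9 h in Alb-Cre and between 7.99 and 11.7 h in BLKO livers; the tallest points are Tubb2a in Alb-Cre and Tuba1c in BLKO livers.

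The counts in BLKO livers are given for completeness, beside the share over all genes, and nothing is read from them. Values of these libraries entered the choice of the genes, which favours calls. An excess over the share of all genes is therefore no evidence. Rhythm was called for 3 of 8 members ad libitum (6.85% of all genes) and 5 of 8 daytime-fed (7.56%), and a difference of rhythm between the regimens for 7 of 8 (14.8%). The mean changed with feeding for 0 of 8 by edgeR (4.15% of all genes; 1 of 8 at an unadjusted p under 0.05). Between the genotypes fed ad libitum, the rhythm differed for 5 of 8 (5.01%) and the mean for 4 of 8 (59.2%). These were Tuba1b (0.47), Tubb2a (0.74) and Tubb5 (0.49), higher in BLKO on the log2 scale, and Tubb4b (-0.25). The effect of feeding on rhythm differed between genotypes for 5 of 8 (7.25%) and that on the mean for 0 of 8 (1.65%; 2 of 8 at an unadjusted p under 0.05). The 2 genotypes come in separate tables, so genotype and table cannot be told apart.

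Within liver, pairs of members differed widely in how closely they moved together. Over 48 points (4 groups by 12 times, each the mean of 2 libraries, centred on the group mean), the correlation of log2 CPM between pairs of members had a median of 0.466 and ran from 0.091 to 0.958, the last for Tuba4a with Tubb4b. Tuba1c correlated with Tuba4a at 0.85, Tubb4b at 0.806, Tubb6 at 0.622 and Tubb2a at 0.581, but with Tuba1a, Tuba1b and Tubb5 at 0.281 to 0.367. Genes outside the family that were among the most like Tuba1c were Fkbp4 (r = 0.816), a co-chaperone of HSP90, Lrrc59 (0.801), a ribosome-binding protein of the endoplasmic reticulum, and Edem1 (0.783), which directs misfolded glycoproteins to degradation. In white fat the nearest genes were Capg, Crip1, Tmem51, Sdc1 and Spcs3 (0.801 to 0.866) and in lung Pdgfb, Myh7, Gmppb, Mbd3 and Slc12a4 (0.642 to 0.697). In white fat Tuba1c was highest in the 3 libraries rich in epididymis genes, and in lung, where Myh7 is a muscle myosin, it had a median of 113 CPM in the 27 libraries rich in muscle or squamous genes against 90.2 CPM in the other 69; the part of these libraries was not tested. The points share libraries and groups, those of liver include the BLKO values that chose Tuba1c, and the correlations are descriptions.

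In white fat, tubulin genes had a rhythm in daytime-fed Alb-Cre mice. There 5 of 9 members passed, against 20.2% of the 11065 genes tested. Tubb2a ran from 79.3 to 235 CPM (median 133), with 215 and 231 CPM at 12 h against 79.3 and 105 at 0 h. Its peak-to-trough difference was 0.97 ± 0.19 at 9.68 h (adjusted p = 0.000228). Tubb4b had 488 and 585 CPM at 12 h against 228 and 288 at 20 h, with 0.75 ± 0.16 at 8.61 h (adjusted p = 0.00167). Tubb5 had 375 and 389 CPM at 10 h against 223 and 241 at 20 h, with 0.67 ± 0.15 at 11.1 h (adjusted p = 0.0014). For these 3 genes the libraries of the high and the low hour, picked from the same values, did not overlap. Without the libraries rich in epididymis genes, described next, their adjusted p-values were 0.000917 for Tubb2a, 0.00192 for Tubb4b and 0.00061 for Tubb5. With time as 12 levels Tubb5 did not pass (0.202).

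Tuba1a and Tuba1b were the other fat members with a rhythm when daytime-fed. Tuba1a had 1760 and 2650 CPM at 4 h against 352 and 1120 at 20 h (1.41 ± 0.40 at 9.66 h, adjusted p = 0.0376). Tuba1b had 2370 and 2800 CPM at 10 h against 657 and 1770 at 0 h (0.79 ± 0.24 at 9.72 h, adjusted p = 0.0332). The library at 657 CPM, 0 h B, held 50100 CPM of epididymis genes, against group medians of 1.15 to 5.16 CPM. It and 2 more such libraries (25100 and 58300 CPM) had Tuba1c at 98.6 to 202 CPM, against 25.5 to 69 CPM in the 93 other fat libraries. Without these 3 libraries, Tuba1a and Tuba1b no longer passed (adjusted p = 0.0791 and 0.0862), while Tuba4a did (0.0312). With time as 12 levels neither Tuba1a (0.636) nor Tuba1b (0.455) passed, while Tuba1c (0.00755), Tuba4a (0.0318) and Tubb2b (0.0213) did. Each of these last genes had its highest value of the group in the epididymis-rich library of 0 h B (202, 120 and 34.6 CPM), which this run included. In the other fat groups 0 of 9 members were rhythmic by edgeR and by DESeq2: ad libitum Alb-Cre (7.9% of all genes), ad libitum BLKO (3.97%) and daytime-fed BLKO (7.13%). In each of these groups 1 member had an unadjusted p under 0.05.

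Daytime feeding changed the rhythm of 3 members in Alb-Cre fat (11.3% of all genes): Tubb2a (adjusted p = 0.00268), Tubb5 (0.0271) and Tubb4b (0.0495). Tubb4b did not pass with RLE scaling (0.0517), without low-depth libraries (0.0508), without epididymis-rich libraries (0.0501) or with only the compared groups fitted (0.0635). Tuba1b passed without the libraries that stood apart (0.0453). In BLKO fat it changed that of 1 member (8.76% of all genes), Tubb4b, from 0.54 ± 0.16 at 17.4 h to 0.34 ± 0.16 at 8.6 h (adjusted p = 0.0336). None of these 4 calls held with time as 12 levels, and leaving out 1 time at a time left 1 to 4 of them. The difference of this effect between genotypes was called for 0 of 9 members and for 0% of all genes by edgeR (462 genes and 2 members at an unadjusted p under 0.05; 0 members by DESeq2).

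Mean levels in fat moved with feeding for Tuba4a and Tubb2a. In Alb-Cre fat 2 of 9 members changed (9.62% of all genes). Tuba4a rose by 0.52 log2 units (SE 0.09, adjusted p = 4.94e-05), from lowest, median and highest libraries of 19.7, 34.2 and 54.5 CPM to 36.1, 45.3 and 120 CPM. Without the 5 libraries that stood apart the value was 0.46. Tubb2a fell by 0.29 (SE 0.09, adjusted p = 0.0348), from 123, 160 and 278 CPM to 79.3, 133 and 235 CPM, and without the 3 epididymis-rich libraries by 0.26 (0.0632). In BLKO fat 1 of 9 changed (10.4%): Tuba4a rose by 0.29 (SE 0.10, adjusted p = 0.0413), from a median of 29.8 to 35.7 CPM, and leaving out any of 8 times raised its adjusted p above 0.05. Tubb2b was lower, at -0.37 with all libraries (adjusted p = 0.216). It passed, also as a fall, without the libraries that stood apart (-0.52, adjusted p = 0.0116) and without the epididymis-rich ones (-0.47, adjusted p = 0.0252). The groups of Tuba4a and of Tubb2a overlapped. The difference between genotypes passed for 0 of 9 (3.57% of all genes; 1 of 9 at an unadjusted p under 0.05; 0 by DESeq2). In the same Alb-Cre comparison all 5 smooth muscle markers rose, their sum going from 140 to 256 CPM (median 216) to 173 to 499 CPM (median 279), and 4 of 5 measured markers of dividing cells fell, with medians of 63.3 and 49.1 CPM. Skeletal muscle markers, of which 1 of 2 measured rose, summed to 27.1 to 219 CPM (median 53) ad libitum and 29.6 to 516 CPM (median 113) daytime-fed. Their part in the result was not tested.

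Tubulin genes were lower in BLKO than in Alb-Cre fat under ad libitum feeding, a comparison in which genotype and table cannot be told apart. Of 9 members 7 passed, all lower, against 62.5% of all genes called in either direction and 32% called lower. Tuba1b had lowest, median and highest libraries of 1390, 1880 and 2890 CPM in Alb-Cre fat and 182, 792 and 1100 CPM in BLKO fat, which do not overlap. Its mean fell by 1.38 log2 units (SE 0.11, adjusted p = 1.11e-19), or by 1.29 without the libraries that stood apart. Tuba1a went from 908, 1530 and 3350 CPM to 93.1, 753 and 1550 CPM, which overlap (-1.11, SE 0.19, adjusted p = 3.58e-07; -0.97 without those libraries). The lowest BLKO values of both genes, 93.1 and 134 CPM for Tuba1a and 182 and 302 CPM for Tuba1b, came from the libraries of 4 h B and 0 h B, which stood apart. The liver libraries of the same time and letter held 3450 and 4010 CPM of the genes that rise in the fasted liver. The fat library of 22 h A, which did not stand apart, had 198 CPM of Tuba1a and 436 CPM of Tuba1b. Its liver counterpart held 2030 CPM of those genes. Whether such libraries come from the same mice is not stated, and their part was not tested. Tubb5 went from 235, 323 and 569 CPM to 136, 192 and 281 CPM (-0.76, SE 0.07, adjusted p = 8.15e-16).

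The other 4 changes were smaller: Tubb4b by -0.49 (adjusted p = 6.18e-08), Tubb2a by -0.29 (0.00453), Tuba4a by -0.27 (0.0115) and Tuba1c by -0.29 (0.0441). The Tuba1c value was -0.18 (0.016) without the libraries that stood apart, and without those of 14 h, which include 1 rich in epididymis genes, it did not pass (-0.19, adjusted p = 0.213). Tubb6, at -0.21, had an adjusted p of 0.0504, and passed without the epididymis-rich libraries (-0.22, adjusted p = 0.0202). The median log2 difference was -0.29 over the 9 members and -0.02 over all genes tested. Feeding and genotype comparisons share the Alb-Cre ad libitum libraries. In BLKO fat 3 of 5 measured stellate and fibroblast markers were lower and 1 higher, their sum running from 2100 to 3190 CPM (median 2560) against 2230 to 4050 CPM (median 3320), and 2 of 5 macrophage markers were lower and 1 higher (medians 764 and 766 CPM). Higher were 4 of 5 smooth muscle markers (median sum 330 against 216 CPM), 3 of 5 measured endothelial markers (660 against 606 CPM) and 3 of 6 adipocyte markers (42300 against 39000 CPM). The part of these cell types was not tested. A rhythm difference between the genotypes was called for 0 of 9 members and 0% of all genes by edgeR, with 874 genes and 1 member at an unadjusted p under 0.05. DESeq2 gave an adjusted p for 5 of the members and called 0.

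**Figure D4:**
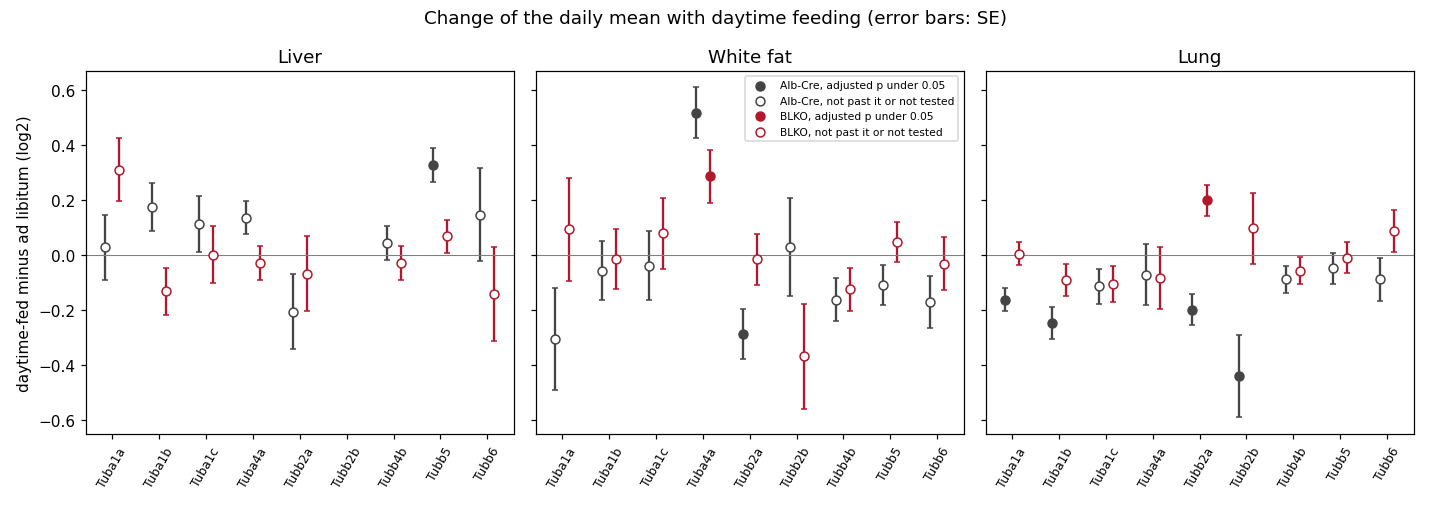
Log2 differences of the daily mean of each tubulin gene in liver, white fat and lung, daytime-fed minus ad libitum in Alb-Cre and in BLKO mice; bars are 1 SE, and filled points passed an adjusted p of 0.05 (open points did not, or were not tested). In lung, Tubb2a lies at -0.20 in Alb-Cre and at 0.20 in BLKO mice; in white fat, Tuba4a lies above 0 in both.

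In lung the daily swings were small. Of 9 members, 1 was rhythmic in Alb-Cre mice fed ad libitum (14.8% of the 11949 genes tested), 2 daytime-fed (1.34%), 1 in BLKO mice fed ad libitum (12.5%) and 0 daytime-fed (1.03%; 1 member at an unadjusted p under 0.05; 0 by DESeq2). Tuba1b in daytime-fed Alb-Cre lungs had 783 and 829 CPM at 10 h against 370 and 508 at 22 h, with 0.56 ± 0.12 at 10.9 h (adjusted p = 0.00767). Tubb5 in the same group had 468 and 563 CPM at 10 h against 321 and 359 at 22 h, with 0.47 ± 0.12 at 10.5 h (adjusted p = 0.0315). In neither gene did these libraries overlap, which is no test since the hours were picked from the same values.

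Tuba1c in ad libitum Alb-Cre lungs had a peak-to-trough difference of 0.45 ± 0.13 at 6.18 h (adjusted p = 0.0356), and Tubb6 in ad libitum BLKO lungs one of 0.56 ± 0.15 at 17.9 h (adjusted p = 0.0132). Without the 27 libraries rich in muscle or squamous genes, which fall 10, 5, 5 and 7 to the 4 groups, Tubb5 had 0.0555 and Tubb6 0.105. With time as 12 levels Tuba1b (0.0508), Tuba1c (0.085) and daytime-fed Tubb5 (0.158) did not pass, while Tubb5 in ad libitum Alb-Cre lungs did (0.0346). Leaving out 1 time at a time left 1 to 4 of the 4 calls. The rhythm differed between regimens for 0 of 9 members by edgeR and DESeq2, both in Alb-Cre (0.762% of all genes; 3 members at an unadjusted p under 0.05) and in BLKO lungs (1.81%; 1 member). Between genotypes fed ad libitum, and for the effect of feeding between genotypes, rhythm differed for 0 of 9 members and 0% of all genes by edgeR (0 members at an unadjusted p under 0.05, but 840 and 671 genes; 0 members by DESeq2).

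**Figure D5:**
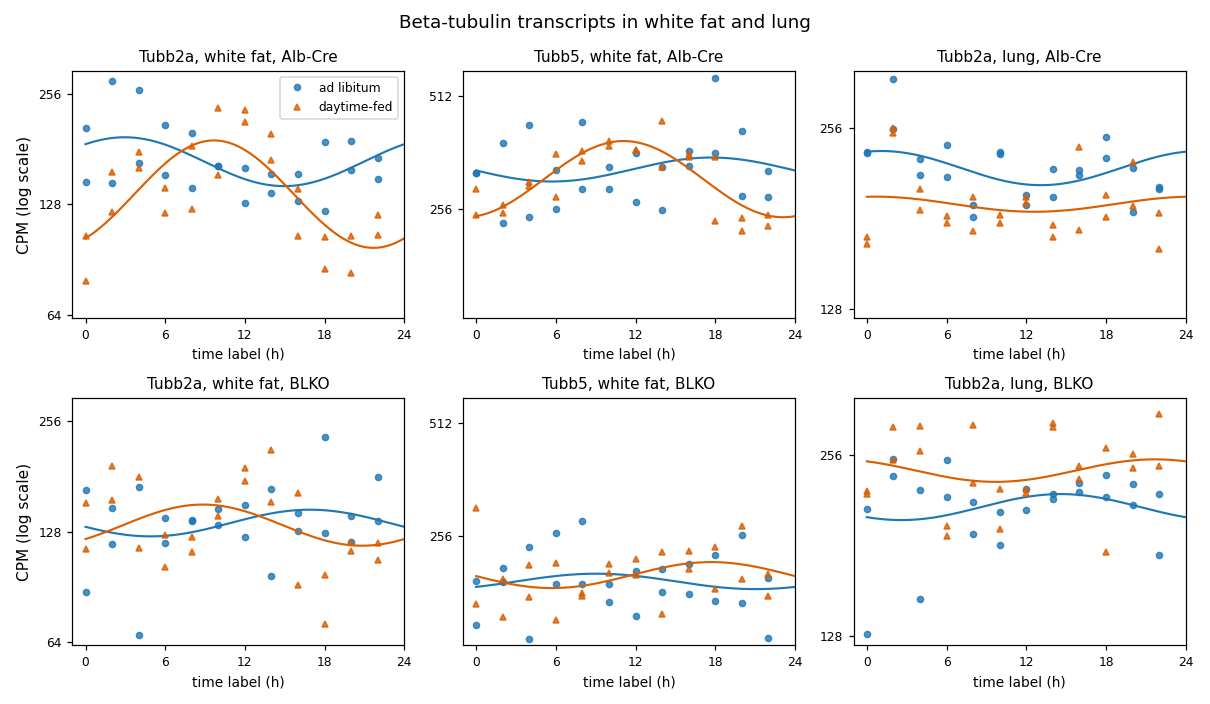
CPM (log axis) against time (h) of Tubb2a and Tubb5 in white fat and of Tubb2a in lung, with Alb-Cre in the upper and BLKO in the lower row; points are single libraries, blue circles ad libitum and orange triangles daytime-fed, and lines the fitted 24 h cosines. In Alb-Cre fat daytime-fed Tubb2a swings by 0.97 and Tubb5 by 0.67 log2 units; in lung the daytime-fed Tubb2a libraries lie lower in Alb-Cre (median 184 against 218 CPM) and higher in BLKO mice (245 against 218 CPM).

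Daytime feeding lowered the mean of 4 members in Alb-Cre lungs, against 8.82% of all genes called in either direction and 4.65% called lower. Tuba1b went from lowest, median and highest libraries of 503, 669 and 866 CPM to 370, 571 and 829 CPM (-0.25, SE 0.06, adjusted p = 0.00294). Tuba1a went from 689, 811 and 940 CPM to 586, 738 and 862 CPM (-0.16, SE 0.04, adjusted p = 0.00784). Tubb2a fell by 0.20 (SE 0.06, adjusted p = 0.0172) and Tubb2b, at medians of 4.89 and 3.65 CPM, by 0.44 (SE 0.15, adjusted p = 0.0495). All 4 pairs of groups overlapped. The median log2 difference was -0.11 over the 9 members and 0.01 over all genes. Without the muscle-rich and squamous-rich libraries only Tuba1b still passed (-0.30, adjusted p = 0.00966), with Tuba1a at -0.16 (0.0643), Tubb2a at -0.20 (0.0807) and Tubb2b at -0.52 (0.132). In the same comparison 3 of 5 measured markers of dividing cells fell, their sum going from 86.6 to 162 CPM (median 115) to 79.4 to 115 CPM (median 96.4), and 3 of 7 ciliated cell markers rose. Their part in the result was not tested.

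Tubb2a in lung answered feeding in opposite directions in the 2 genotypes. In Alb-Cre lungs its libraries ran from 182 to 309 CPM (median 218) ad libitum and from 161 to 256 CPM (median 184) daytime-fed. In BLKO lungs they ran from 129 to 252 CPM (median 218) ad libitum and from 177 to 300 CPM (median 245) daytime-fed. The ranges overlapped in both. In BLKO lungs it was the 1 member of 9 that changed (4.54% of all genes), rising by 0.20 log2 units (SE 0.06, adjusted p = 0.0213). Without the 27 muscle-rich or squamous-rich libraries neither genotype passed alone, with 0.20 (adjusted p = 0.113) in BLKO and -0.20 (0.0807) in Alb-Cre lungs, and the BLKO value did not pass without low-depth libraries (0.17, adjusted p = 0.0635) either. The difference between the effects was 0.40 (SE 0.08, adjusted p = 0.000575). Tubb2a was the 1 member of 9 for which it passed, against 5.61% of all genes, and DESeq2 also called 1. Without those libraries the difference was 0.40 with an adjusted p of 0.0114.

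Between genotypes fed ad libitum, 6 of 9 members differed in lung (65.8% of all genes), 4 lower and 2 higher in BLKO. Tubb5 had lowest, median and highest libraries of 211, 462 and 526 CPM in Alb-Cre and 158, 222 and 267 CPM in BLKO lungs, overlapping between 211 and 267 CPM (-1.004, SE 0.06, adjusted p = 8.86e-30). Tuba1c went from 73.6, 123 and 167 CPM to 61.8, 78.6 and 114 CPM (-0.56, SE 0.06, adjusted p = 6.43e-13). Tuba1a (-0.43, adjusted p = 1.1e-15) and Tuba4a (-0.33, adjusted p = 0.00704) were lower too, and Tubb4b (0.17, adjusted p = 0.00218) and Tubb2b (0.30, adjusted p = 0.045) higher. Tuba4a had a median of 163 CPM in the 27 muscle-rich or squamous-rich libraries and 106 CPM in the other 69, and without those libraries its difference was -0.20 (adjusted p = 0.0267). Without the libraries of 16 h it did not pass (-0.21, adjusted p = 0.0949). Tubb2b did not pass without the muscle-rich and squamous-rich libraries (0.34, adjusted p = 0.0957). In the same comparison 5 of 5 macrophage markers were lower (median sum 426 against 328 CPM), as were 5 of 5 alveolar type 2 markers (44200 against 36200) and 4 of 4 measured alveolar type 1 markers (8160 against 5680). Club markers (2 of 3) and adipocyte markers (3 of 5 measured) were higher. Ciliated cell markers (4 higher, 2 lower), stellate and fibroblast markers (3 higher, 1 lower) and endothelial markers (1 higher, 3 lower) went both ways. Genotype and table cannot be told apart here either, and the part of these cell types was not tested.

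The wider tubulin machinery was read from 13 lists of genes. In Alb-Cre liver, feeding changed the rhythm of 30 of 93 measured list genes (32.3%, against 28.5% of all genes). All 8 subunits of TRiC, the chaperonin that folds tubulin and actin, passed. Their fitted peaks lay between 16 and 19.7 h ad libitum and between 3.06 and 9.92 h daytime-fed, with swings such as 0.46 and 0.43 log2 units for Cct5 (adjusted p = 1.29e-07) and 0.52 and 0.61 for Tcp1 (1.71e-06). For Tubb2a, Tuba4a and Tubb4b the peaks lay at 0.272 to 3.44 h and at 11.1 to 11.6 h. For the other tubulin genes with a changed rhythm, the daytime-fed peaks were 9.02 h (Tuba1c), 13.5 h (Tuba1b) and 15.9 h (Tubb5). That of Tuba1c lay within the TRiC range, though its libraries were lower at 8 h than at 4 h and 12 h. The daytime-fed rhythm of Tubb5 did not pass. The ad libitum peaks of Tuba1c, Tuba1b and Tubb5 were 1.85, 4.52 and 4.64 h, where only the rhythm of Tubb5 passed.

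Of the other lists in Alb-Cre liver, actin genes and targets of serum response factor had 6 of 16, led by Actn1 (adjusted p = 1.43e-11), an actin crosslinker, and Zyx (0.000103), a focal adhesion protein. Actb, by which the cDNA amounts were balanced, was among them, with 0.15 ± 0.12 ad libitum and 0.60 ± 0.12 at 12.9 h daytime-fed. Motors had 6 of 16, led by the kinesin light chain Klc4 (2.73e-05) and the kinesin Kif1b (0.00141). Tubulin-modifying enzymes had 3 of 11, the acetyltransferase Atat1 (0.00177), the carboxypeptidase Agbl5 (0.0122) and the tyrosine ligase Ttl (0.036). Folding cofactors had 2 of 7 (Tbcel, 3.38e-05, and Arl2, 0.0428), microtubule-associated proteins 2 of 12 (Mapre3, 0.0312, and Map7, 0.034), and prefoldin 1 of 5 (Pfdn2, 0.00126). The ring complex that nucleates microtubules had 1 of 7 (Tubgcp6, 0.0297) and the gamma, delta and epsilon tubulins 1 of 2 (Tubg1, 0.00934). The measured genes of mRNA autoregulation (0 of 4), of microtubule destabilization (0 of 4) and the other alpha tubulins (0 of 1) did not pass, and no other beta tubulin was measured in liver.

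The same lists were read in white fat and lung. In Alb-Cre fat, feeding changed the rhythm of 15 of 107 list genes (14%, against 11.3% of all genes) and the mean of 15 of 107 (14%, against 9.62%). Acta2 (0.91) and Tagln (0.35), both smooth muscle genes, rose most clearly. Between genotypes 69 of 107 differed in fat (64.5%, against 62.5% of all genes). Among them were 6 TRiC subunits lower and 1 higher in BLKO, with a median over the 8 of -0.28, and 32% of all genes were called lower. In lung, feeding changed the mean of 17 of 114 list genes in Alb-Cre mice (14.9%, against 8.82%), among them 3 TRiC subunits lower, and the rhythm of 0 of 114. Between genotypes 80 of 114 differed in lung (70.2%, against 65.8% of all genes).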

How the data were processed

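Each of 6 tables, 1 per tissue and genotype, held raw read counts per gene for 48 libraries, deposited by the authors, and a normalized signal column per library, also deposited by the authors and not used here. Per the submitters' processing notes, bcl2fastq, cutadapt, STAR, HTSeq, DESeq2 and the mm10 build were used, with no versions given. Per the labels' protocols, tissue was snap-frozen before RNA isolation, qPCR of Actb served to balance the cDNA and libraries were amplified linearly in 96-well plates; the primer of reverse transcription is not given in the sources used here. Such amplification and the counting of reads shared between paralogs can change the level of single isotypes.

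The tables of both genotypes were joined per tissue on genes listed in both, scaled by TMM and filtered with filterByExpr. One edgeR model (version 4.0.16, limma 3.58.1, R 4.3.3) per tissue held a mean, a cosine and a sine term of period 24 h for each of 4 groups (84 residual degrees of freedom). Rhythm was tested on the cosine and sine terms together, differences of rhythm on their contrasts and differences of mean on the mean terms, two-sided, with Benjamini-Hochberg adjustment over all genes of the tissue. A least-squares cosine on log2 CPM (prior count 2) gave each fitted peak time and swing. The scripts were tested on simulated data. Alternatives were RLE scaling, DESeq2 1.42.0, no filter, time as 12 levels, a replicate block, summed paralogs, a prior count of 0.5, only the compared groups fitted, and leaving out low-depth libraries or 1 time at a time. Leaving out libraries that stood apart (median correlation with their group more than 5 median absolute deviations below that of the tissue) or rich in genes of other tissues was added after the data were seen, as were the 4 marker lists for it.

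The members, the 13 pathway lists and the tests were chosen with earlier results of these data known. All 9 members are named; list genes named are those past the threshold, up to 4 per list by lowest p, and genes like Tuba1c are the 5 with the highest correlation per tissue, of which 2 in liver are not reported here. No pair of libraries agreed within counting noise. Counting error is included in the spread between libraries. BLKO liver and genotype differences in liver, whose values chose a member, are described: counts of calls are printed beside the share of all genes, and no result is read from them.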

Additional observations from a re-analysis of the deposited data

Results flagged for a closer look

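Tubb2a in lung was flagged because the effect of daytime feeding on its mean differed between the genotypes by a test of the difference itself: 0.40 log2 units, BLKO minus Alb-Cre (SE 0.08, adjusted p = 0.000575 by edgeR). Its mean moved by -0.20 in Alb-Cre and by 0.20 in BLKO lungs, and the 2 comparisons share no libraries. Over the alternatives the difference ran from 0.356 to 0.441, with adjusted p-values from 2.66e-05 to 0.0114. In Tubb2a, 45.6% of the stretches of 50 bases also occur in Tubb2b, and how such reads were counted is not given in the sources used here.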

How the results depend on the processing

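In liver, 10 rhythm calls in both Alb-Cre groups together (9 to 10 when 1 time was left out), 6 differences of rhythm with feeding (6 to 7) and 1 of mean (1 to 2) were made. In white fat, 5 rhythm calls (3 to 5) became 3 with only the compared groups fitted and, with time as 12 levels, stayed at 5 with 3 of the members lost and 3 others gained, 4 differences of rhythm with feeding (1 to 4) became 0 with time as 12 levels, 3 differences of mean with feeding ran from 1 to 3 and 7 with genotype from 6 to 8. In lung, 4 rhythm calls (1 to 4) became 2 without the muscle-rich or squamous-rich libraries and 2 with time as 12 levels, and 5 differences of mean with feeding in both genotypes together (3 to 5) became 1 without those libraries. The 6 genotype differences of mean in lung ran from 4 to 6 and the 1 feeding by genotype call from 1 to 2. The counts of 0, for rhythm with genotype in fat and lung, with feeding in lung and for feeding by genotype in fat, stayed at 0 in every alternative run. DESeq2 gave 8 genotype calls in fat, 4 feeding calls of mean and 5 genotype calls in lung, and equalled the other counts. No value of a member changed direction past its test. With a replicate block, liver kept 6 and 1 feeding calls and fat 4 and 3, with 8 genotype calls of mean; lung had 0 feeding calls of rhythm, 4 of mean and 5 genotype calls, the 1 feeding by genotype call remained, and genotype calls of rhythm were 0. The labels share only a time and letter: libraries of the same label correlated in their deviations at medians of -0.0534 to 0.156. No paired analysis was possible for rhythm within 1 group because the block is the time itself. Depth limits the genes near 7 CPM in liver, Tuba1a and Tubb6, whose libraries hold few reads of them.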

Other observations

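Another alpha tubulin, Tuba8, known from testis, muscle and brain, lay higher in the BLKO than in the Alb-Cre liver libraries; this is a description with no test. Its medians were 3.12 and 3.43 CPM in Alb-Cre livers fed ad libitum and daytime-fed, and 20.7 and 16 CPM in BLKO livers. In lung Tuba8 was lower in BLKO mice (-0.41, adjusted p = 0.00173 by edgeR). Tubb4a, a beta tubulin of the nervous system, was higher in BLKO fat (1.09, SE 0.20, adjusted p = 1.37e-06) and lower in BLKO lung (-0.56, adjusted p = 7.37e-06). Dctn1, a dynactin subunit, was higher in BLKO mice by 2.09 in fat and 2.52 in lung, tissues that the Cre does not target, while in liver its fitted difference was -0.69. Genotype and table cannot be told apart in any of these values. Tuba8, Tubb4a and Dctn1 were singled out after their values were seen.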
